A study of Mus musculus with 12 samples.

Results

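The urea cycle and amino acid catabolism genes are a set of 37 liver enzyme genes, taken by name, out of 21853 protein-coding genes of the mouse annotation. Each gene was examined in ChIP-seq peak lists of mouse liver at its promoter and over its locus. A promoter was the sequence within 1 kb of any annotated transcription start site (TSS), and a locus was the gene body plus 10 kb on either side. LSD1, a histone demethylase encoded by Kdm1a, was profiled in wild-type C57BL/6 liver with 2 ChIP and 2 control libraries. H3K4me2, the dimethylated histone mark that LSD1 can remove, was profiled in liver of GFP control and of LSD1-LKO mice, with 2 ChIP and 2 input libraries for each genotype. These are 12 libraries in all, and every peak list joins the 2 ChIP libraries of 1 group. Per the methods of the study, both genotypes carried the floxed LSD1 allele and were given AAV8 as adults. The virus carried GFP or Cre under the TBG promoter, which is active in hepatocytes, so other liver cells of LSD1-LKO mice kept LSD1. In the general methods, LSD1-LKO and control mice were injected as young adults, put on a high-fat diet soon after and sampled some weeks later. The labels give neither age nor diet for the ChIP-seq animals, and nothing says whether the libraries of a group came from separate animals. The lists come from whole liver, so a smaller share of a cell type and less H3K4me2 per cell cannot be told apart.

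The liver disposes of amino nitrogen and burns the carbon skeletons of amino acids. The urea cycle joins ammonia and aspartate nitrogen into urea, and glutamine and glutamate carry nitrogen to and from it. Separate routes break down histidine, tyrosine, tryptophan, serine, glycine and the branched-chain amino acids, while the methionine cycle supplies methyl groups and feeds cysteine synthesis by transsulfuration. H3K4me2 typically lies at promoters and enhancers of genes that are active or poised.

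The quality of the lists bears on every value. Hepatocyte markers carried a listed H3K4me2 promoter peak for 7 of 8 genes in control and 8 of 8 in LSD1-LKO. Of the 8, 6 had less promoter length covered in LSD1-LKO. The marker without a control promoter peak was Alb, with 0 bp covered in control against 677 bp in LSD1-LKO in the first-listed libraries. Markers of Kupffer cells (5 genes) and lymphocytes (4 genes) had none in either list. Endothelial markers had 0 and 1 of 5, stellate markers 1 and 2 of 5, and cholangiocyte markers 3 and 2 of 5, in control and LSD1-LKO respectively. Kdm1a itself had no LSD1 peak, no control H3K4me2 promoter peak and 2 LSD1-LKO promoter peaks. H3K4me2 at that promoter does not check the deletion. The files give peaks and not reads, so sequencing depth is unknown, and a strong promoter can be missing because its peaks in the 2 libraries did not meet the overlap rule. With 2 libraries against 2, the smallest two-sided exact permutation p is 0.333, so no difference between genotypes was tested and counts are set beside the same counts over all genes.

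LSD1 had a listed promoter peak at 17 of the 37 genes, most of them weak, since 2 genes kept one at a MACS p of 1e-05 or below in both libraries. The same held for 23.6% of all protein-coding genes and for 37.6% of the 13553 genes with an H3K4me2 promoter peak in either list. The 17 genes held 19 promoter peaks, of which 12 covered an annotated TSS, and the median distance from peak center to the nearest TSS was 155 bp. Fold enrichment is the ChIP signal over the control library as the peak caller gave it. It had a median of 2.85 in the first-listed and 3.77 in the second-listed library for these peaks, against 2.9 and 3.01 over all 14584 LSD1 peaks. Peaks were also ranked by the mean of their −log10 p over both libraries and expressed as a percentile of the list. On that scale the 19 peaks ran from 12.6 to 99.1 with a median of 70.1.

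By this rank Fah, Hibch, Glul, Hal and Uroc1 led the promoter peaks of the set. The 150 bases at the center of each of these peaks are printed to show the sequence under the highest-ranking LSD1 promoter peaks of the set, 5′ to 3′ on the strand of the gene, from GRCm38/mm10. CG dinucleotides are in capitals, since CpG content differs widely among these promoters. The windows lie at chr7:84606023-84606172 (Fah), chr1:52845109-52845258 (Hibch), chr1:153899865-153900014 (Glul), chr10:93488599-93488748 (Hal) and chr6:90333124-90333273 (Uroc1).
Fah: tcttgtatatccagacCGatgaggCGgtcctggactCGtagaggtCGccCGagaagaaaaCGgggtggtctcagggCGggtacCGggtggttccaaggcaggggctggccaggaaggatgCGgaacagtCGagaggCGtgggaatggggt
Hibch: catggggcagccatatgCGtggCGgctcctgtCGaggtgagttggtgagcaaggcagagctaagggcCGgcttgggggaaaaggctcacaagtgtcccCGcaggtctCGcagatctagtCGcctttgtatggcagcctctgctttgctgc
Glul: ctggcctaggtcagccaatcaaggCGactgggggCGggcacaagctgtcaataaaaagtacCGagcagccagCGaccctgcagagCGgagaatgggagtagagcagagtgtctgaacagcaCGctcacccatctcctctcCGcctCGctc
Hal: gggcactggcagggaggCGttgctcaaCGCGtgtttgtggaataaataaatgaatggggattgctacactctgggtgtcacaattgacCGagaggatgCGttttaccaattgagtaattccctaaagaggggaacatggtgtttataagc
Uroc1: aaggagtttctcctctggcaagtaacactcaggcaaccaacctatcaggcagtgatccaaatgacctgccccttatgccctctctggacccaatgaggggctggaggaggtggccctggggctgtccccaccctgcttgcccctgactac
The Fah window holds 11 CG dinucleotides, the Glul window 8, the Hibch window 7, the Hal window 5 and the Uroc1 window 0. Over the whole peak, CG dinucleotides numbered 51 in 1021 bp at Fah, 24 in 419 bp at Hibch, 73 in 1135 bp at Glul, 16 in 722 bp at Hal and 3 in 408 bp at Uroc1. These highest-ranking peaks therefore lay over sequence that differed widely in CpG content. The CpG-poorest case was Uroc1, whose peak had a −log10 p of 4.16 in the first-listed and 7.02 in the second-listed library. In the first-listed library it missed the MACS p cut given above, so a strong peak over such CpG-poor sequence was not shown. Across promoters, the ratio of observed to expected CpG within 500 bp of the TSS had a median of 0.604 where LSD1 had a promoter peak (17 genes) against 0.316 where it had none (20 genes). Among all H3K4me2-marked genes these medians were 0.763 and 0.682.

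Fah encodes fumarylacetoacetate hydrolase, the last enzyme of tyrosine breakdown, and had the highest-ranking LSD1 promoter peak of the set. The peak spanned chr7:84605587-84606607 and covered 1 of 2 annotated TSS of the gene (chromosome 7, 84585159 to 84606722, minus strand). Fold enrichment was 7.35 in the first-listed and 5.34 in the second-listed library. Hibch, an enzyme of valine breakdown, followed at percentile 93.4. Its peak at chr1:52844974-52845392 had fold enrichments of 6.69 and 3.14, so the libraries differed by more than at Fah. Glul, glutamine synthetase, had 2 LSD1 promoter peaks, at percentiles 92.4 and 87.8, which met the same single peak of the second-listed library. Fold enrichments were 3.73 and 2.85 in the first-listed library, against a shared 5.42 in the second. Histidine breakdown was represented by both of its genes. Hal, histidase, had fold enrichments of 4.01 and 3.92 over its TSS, and Uroc1, urocanase, 3.34 and 4.53.

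**Figure D1:**
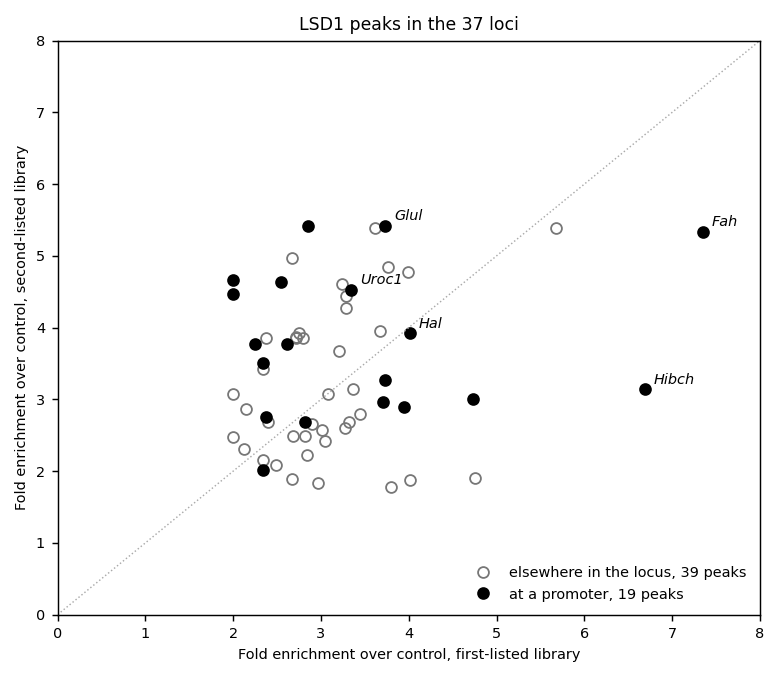
Fold enrichment of each of the 58 LSD1 peaks in the 37 loci, with the first-listed library on the horizontal and the second-listed library on the vertical axis. Filled points are the 19 promoter peaks and open points the other 39, the dotted line marks equal values, and the 5 named genes hold the highest-ranking promoter peaks, with Fah at 7.35 and 5.34.

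The other 12 genes with an LSD1 promoter peak had weaker or less even signals. Glud1, glutamate dehydrogenase, stood at percentile 79.8, and Pcca, a subunit of propionyl-CoA carboxylase, at 75.0. Methionine metabolism held Bhmt at 75.2 and 41.7 with 2 peaks, Ahcy at 70.1, Cth at 68.1 and Cbs at 65.8. These enzymes remethylate homocysteine, hydrolyse S-adenosylhomocysteine and carry out the steps of transsulfuration. Asl, argininosuccinate lyase, was the sole urea cycle member with an LSD1 promoter peak, at percentile 67.5, and its fold enrichment was 2.0 in the first-listed and 4.66 in the second-listed library. Bckdha, a subunit of the branched-chain ketoacid dehydrogenase, stood at 54.8, Hpd of tyrosine breakdown at 46.4 and Aldh6a1 of valine breakdown at 37.2. The lowest were Sds, serine dehydratase, at 17.9 and Gldc of the glycine cleavage system at 12.6. Promoters of 5 genes with such a peak are shared with another protein-coding gene, namely Asl with Crcp, Glud1 with Shld2, Glul with Teddm2, Bckdha with Exosc5 and Aldh6a1 with Lin52. There the peak cannot be assigned to 1 gene of the pair.

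Exact letters of 5 transcription factor motifs were searched on both strands of the 500-bp windows centered on LSD1 peaks. ERRα and GABPα types were taken because the study reported these motifs, along with NRF1, at LSD1 binding sites. NRF1 letters were not searched here, and HNF4, cAMP response element and C/EBP letters were added. The letters CAAAGGTCA (ERRα type) were found in windows of 2 member peaks, at Bhmt and Gls2, and in 1.85% of all LSD1 windows. CAAAGTCCA (HNF4 type) was found in 2 windows, at Asl and Gnmt, and in 1.69% of all. CCGGAAGT (GABPα type) was found in 2 windows, at Asl and Nags, and in 2.87% of all. The Nags window belongs to the peak at the promoter of Tmem101, downstream of Nags, and the Asl peak lies at the promoter shared with Crcp. These GABPα matches therefore cannot be assigned to the member genes. TGACGTCA (the cAMP response element) and TTGCGCAA (C/EBP type) were in none of the 58 member windows, beside 1.19% and 0.418% of all. The Bhmt and Gls2 stretches at chr13:93637760-93637848 and chr10:128201835-128201923 and the Asl stretch at chr5:130029498-130029757, which holds both of its motifs, are printed with the matched letters in capitals, on the strand of the gene.
Bhmt: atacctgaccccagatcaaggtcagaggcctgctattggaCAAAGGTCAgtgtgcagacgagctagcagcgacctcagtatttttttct
Gls2: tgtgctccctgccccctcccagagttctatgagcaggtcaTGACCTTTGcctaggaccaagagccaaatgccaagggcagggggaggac
Asl: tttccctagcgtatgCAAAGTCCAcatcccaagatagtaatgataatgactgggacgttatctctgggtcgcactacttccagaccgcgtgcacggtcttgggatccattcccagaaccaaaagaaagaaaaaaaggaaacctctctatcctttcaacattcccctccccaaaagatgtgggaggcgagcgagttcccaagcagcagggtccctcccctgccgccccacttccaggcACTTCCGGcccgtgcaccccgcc
The letters at Bhmt read as written on the gene's strand, inside the gene and downstream of its annotated TSS. Those at Gls2 are on the opposite strand within the gene body. RefSeq promoter windows on GRCm38, from 250 bases before to 50 after a start, were matched for 29 of the 37 genes. None of the 29 held the HNF4, GABPα, cAMP or C/EBP letters, whose shares over all 32817 promoters were 0.475%, 3.89%, 1.79% and 0.183%. The ERRα letters were in 1, Bhmt, and in 0.478% of all promoters. These windows rest on RefSeq starts and not on the TSS used for the peaks. Whether the Bhmt window holds the printed match was not examined. A match is a description of letters and not of binding.

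Over whole loci, LSD1 was listed at 30 of the 37 genes, beside 43.6% of all protein-coding genes and 60.5% of the genes marked by H3K4me2. The loci held 58 LSD1 peaks. Counted by gene these were 59, or 2.51 per 100 kb of summed locus length, against 1.35 for marked genes and 1.03 for all. Long loci weigh heavily in such a density, and the longest was 377 kb among members against 4455 kb among marked genes. The median number of LSD1 peaks per locus was 1 in members and 1 in marked genes. Sds and Sdsl, which encode related serine dehydratases, lie next to each other and share 1 of the peaks, and 12 of the 58 lay at the promoter of a gene outside the set. Counted by gene, 19 peaks were at promoters, 16 in introns, 3 in exons, 8 upstream and 13 downstream. In 13 genes the locus held a peak while the promoter did not, and 7 genes (Oat, Hgd, Bckdhb, Ivd, Pccb, Hibadh and Mat1a) had no LSD1 peak at all.

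In the urea cycle all 5 loci held an LSD1 peak, while 4 of the 5 promoters did not. Ass1, argininosuccinate synthase (chromosome 2, 31470207 to 31520672), held 5 LSD1 peaks, the most of any member. The strongest lay upstream at chr2:31464154-31464904 and ranked at percentile 93.7, with fold enrichments of 3.76 and 4.85. A further Ass1 peak in the gene at chr2:31474844-31475243 ranked at 86.5. Cps1, carbamoyl phosphate synthetase, had 2 intronic peaks at percentiles 53.3 and 14.9, both outside H3K4me2 of either list. Arg1, arginase, had 1 peak downstream at percentile 50.4. Nags, which makes the activator of Cps1, had 1 peak within the gene at 74.4 and 1 at the promoter of Tmem101.

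Hal held 4 LSD1 peaks, the second most, and 2 of the other 3 lay within the gene. Outside promoters the highest-ranking peak of the whole set was upstream of Gnmt, glycine N-methyltransferase, at chr17:46735085-46735811, with fold enrichments of 5.68 and 5.39 and a percentile of 97.1. Tat, tyrosine aminotransferase, had 3 peaks downstream of the gene at percentiles 49.6, 42.8 and 10.7. Each of the tryptophan genes Tdo2, Kmo and Haao held 1 LSD1 peak in the locus and none at the promoter. The Kmo peak lay at the promoter of Fh1, at percentile 8.89.

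**Figure D2:**
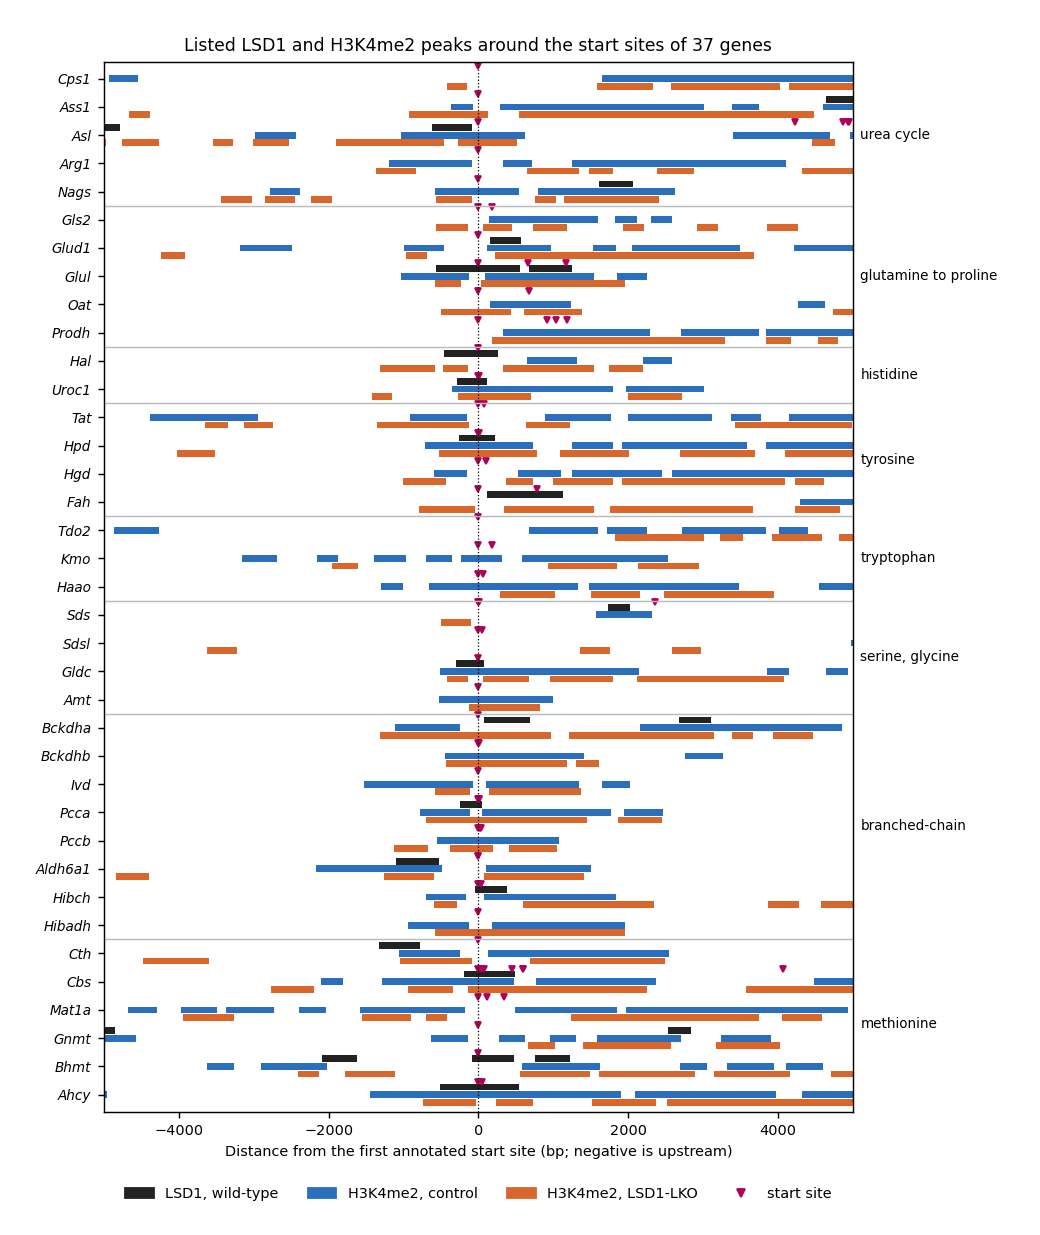
Listed peaks within 5 kb of the first annotated start site of each of the 37 genes, drawn with transcription to the right. Black bars are LSD1 peaks, blue bars control and orange bars LSD1-LKO H3K4me2 peaks (intervals of the first-listed library), and triangles mark start sites of protein-coding transcripts. LSD1 peaks cluster near start sites in 17 genes, and Fah shows orange bars at its start sites and no blue bar there.

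H3K4me2 was listed at the promoter of 35 of the 37 genes in control liver and of 35 in LSD1-LKO liver, against 58.8% and 58.9% of all protein-coding genes. Both lists marked 33 genes, and no gene lacked the mark in both. Peaks of LSD1 at member promoters overlapped a control H3K4me2 peak in 15 of 19 cases and an LSD1-LKO peak in 16 of 19. The same shares over all LSD1 promoter peaks were not counted, so these promoter counts have no background. Counting all 58 LSD1 peaks in the loci, 34 (58.6%, 95% Wilson interval 45.8 to 70.4, counting error only) lay over control H3K4me2 and 39 (67.2%) over LSD1-LKO H3K4me2. Over all LSD1 peaks the shares were 52.5% and 53.8%. Of the 19 promoter peaks, those of Sds and Hibch met control H3K4me2 alone, and those of Hal, Fah and Bckdha met LSD1-LKO H3K4me2 alone. The Bhmt peak at chr13:93637479-93638049, which holds the printed ERRα letters, met neither.

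A promoter peak in 1 list alone was seen at 4 genes. Tdo2 and Sdsl had one in control only, as did 4.99% of marked genes, and Cps1 and Fah in LSD1-LKO only, as did 5.14%. The covered promoter length, meaning the promoter bases under listed peaks, was taken from the intervals of each library in turn. Both intervals come from the same joined list, so the libraries are not independent here, and a promoter whose peaks were not paired usually reads 0 in both. At Fah it was 0 bp in both control libraries and 1978 and 2432 bp in the first-listed and second-listed LSD1-LKO libraries. The only control peak of the Fah locus was intronic, with its center 3939 bp from the nearest TSS. At Sdsl it was 555 and 502 bp in control and 0 bp in both LSD1-LKO libraries. These pairs of 0 follow from the absence of a listed pair and do not repeat the difference in another library. Tdo2, the first enzyme of tryptophan breakdown, had 331 and 527 bp in control against 0 and 1323 bp in LSD1-LKO, and these groups overlap. Cps1 had 0 and 1375 bp in control against 277 and 738 bp in LSD1-LKO, and the groups overlap as well.

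Covered promoter length was lower in LSD1-LKO at 24 and higher at 13 of the 37 genes with the first-listed libraries. Among marked genes 60.1% were lower and 39.4% higher. The median over members was 1428 bp for control against 1224 bp for LSD1-LKO, and the median difference by gene was −331 bp, beside −111 bp over marked genes. With the second-listed libraries the median difference was −65 bp, with 20 lower, 16 higher and 1 equal, beside 12 bp over marked genes. Both libraries were lower at 16 genes, both higher at 8, and 12 went opposite ways. Over marked genes these classes took 30.0%, 25.3% and 37.9%. The share of all genes whose covered lengths do not overlap between groups was not counted, so such cases named below have no background. Over the loci, the covered length was lower in LSD1-LKO at 21 genes and higher at 16, with medians of 5421 bp for control against 4785 bp for LSD1-LKO, and 58.1% of marked genes were lower. In the first-listed libraries the 17 genes with an LSD1 promoter peak had a median difference of −336 bp at the promoter. The 20 without had −195 bp, beside −112 and −109 bp in marked genes. With the second-listed libraries the order turned, and the genes without an LSD1 promoter peak had the lower median. The 8 hepatocyte markers had a median difference of −1002.5 bp, with 6 lower and 2 higher, and its part in the values of the set was not tested.

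**Figure D3:**
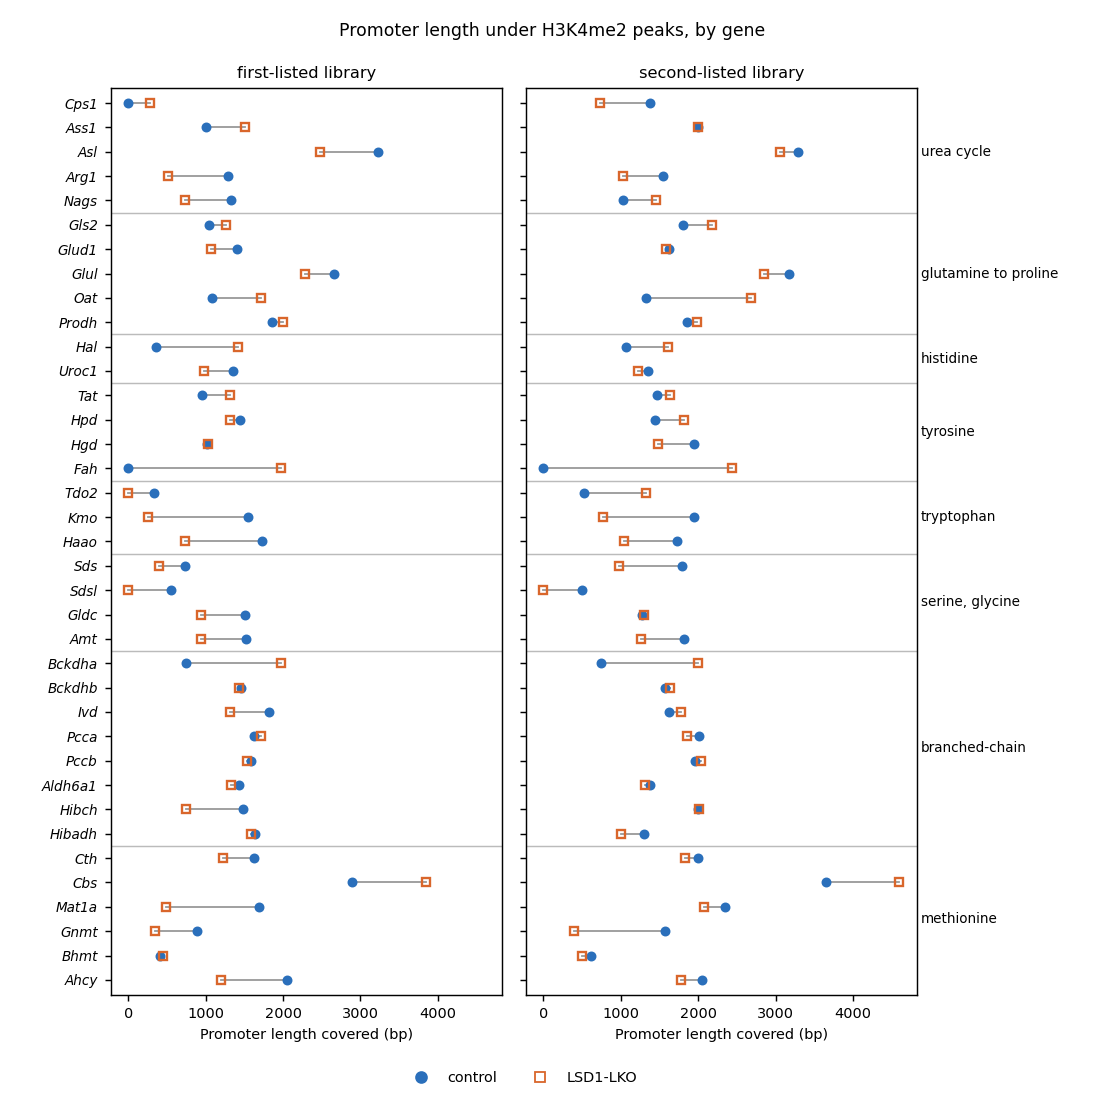
Promoter bases under listed H3K4me2 peaks (bp, horizontal axis) for each of the 37 genes in control (filled circles) and LSD1-LKO (open squares), joined by a line, with the first-listed libraries on the left and the second-listed on the right. Fah stands at 0 in control and 1978 or 2432 in LSD1-LKO, and the tryptophan genes Kmo and Haao lie lower in LSD1-LKO in both panels.

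The tryptophan pathway had the lowest median difference of the 8 pathways, −999 bp in the first-listed libraries. All 3 genes were lower there, beside 60.1% of marked genes. Kmo, kynurenine monooxygenase, had 1545 and 1943 bp covered in control against 251 and 767 bp in LSD1-LKO, with no overlap between groups. In control liver 4 peaks lined the Kmo promoter, and the LSD1-LKO list held 1 promoter peak, at chr1:175632930-175633845. Haao, which acts later in the same pathway, had 1727 and 1733 bp in control against 728 and 1048 bp in LSD1-LKO, again without overlap. None of the 3 genes had an LSD1 promoter peak.

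Covered promoter length was lower at all 4 serine and glycine genes in the first-listed libraries, beside 60.1% of marked genes. The median difference was −562.5 bp. Sds had 739 and 1795 bp in control against 398 and 972 bp in LSD1-LKO, which overlap. Amt of the glycine cleavage system had 1515 and 1815 bp against 944 and 1256 bp, which do not. Gldc, its partner, had 1513 and 1275 bp against 943 and 1300 bp, and the second-listed libraries thus differed by 25 bp in the other direction.

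Covered promoter length was lower at 4 of 6 methionine genes in the first-listed libraries, beside 60.1% of marked genes. The median difference was −477 bp. Mat1a, the liver S-adenosylmethionine synthetase, had 1683 and 2347 bp in control against 485 and 2076 bp in LSD1-LKO, so the libraries of LSD1-LKO disagreed widely. Ahcy had 2051 bp in both control libraries against 1196 and 1777 bp. Gnmt had 894 and 1566 bp against 345 and 390 bp, and neither of these genes overlapped between groups. Cbs, cystathionine beta-synthase, went the other way, with 2893 and 3648 bp in control against 3846 and 4600 bp in LSD1-LKO. At Cth the values were 1629 and 2001 bp against 1224 and 1826 bp, and at Bhmt 415 and 614 bp against 447 and 497 bp, with overlap at both.

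In the urea cycle 3 of 5 genes were lower in the first-listed libraries, beside 60.1% of marked genes. Their pathway had a median difference of −596 bp. Arg1 had 1294 and 1548 bp in control against 515 and 1032 bp in LSD1-LKO, without overlap. Asl had 3222 and 3290 bp against 2477 and 3062 bp, also without overlap. Ass1 was higher in the first-listed library, 1513 against 1002 bp, and equal at 2001 bp in the second. Its promoter is 2001 bp long, so it was covered in full there and no difference could show. Other members covered in full in some library include Ahcy, Mat1a and Cth in control and Oat and Pccb in LSD1-LKO. Nags had 1326 and 1023 bp in control against 730 and 1452 bp after deletion, with opposite signs.

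More promoter length was covered in LSD1-LKO at 3 of 4 tyrosine genes, 3 of 5 glutamine to proline genes and 1 of 2 histidine genes. These counts are from the first-listed libraries, where 39.4% of marked genes were higher. Tyrosine genes had a median difference of 188.5 bp, and Fah, given above, had the largest rise of the set at 1978 bp. Tat had 955 and 1473 bp in control against 1317 and 1631 bp in LSD1-LKO, and Hpd 1437 and 1448 bp against 1315 and 1814 bp, with overlap at both. Hgd, homogentisate dioxygenase, had 1017 and 1950 bp against 1032 and 1486 bp, with opposite signs. Hal had 352 and 1071 bp in control against 1418 and 1610 bp in LSD1-LKO, without overlap, whereas Uroc1 had 1359 and 1354 bp against 978 and 1223 bp and was lower without overlap. Of the glutamine to proline genes, Oat, ornithine aminotransferase, had 1079 and 1323 bp in control against 1717 and 2681 bp, without overlap. Glul had 2662 and 3172 bp against 2287 and 2848 bp, which overlap. Gls2, Prodh and Glud1 differed by 225, 139 and −336 bp in the first-listed and by 371, 128 and −35 bp in the second-listed libraries.

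The branched-chain genes had a median difference of −57.5 bp over 8 genes in the first-listed libraries. Of these 6 were lower, beside 60.1% of marked genes. Bckdhb, Ivd, Pccb and Hibch turned from lower to higher in the second-listed libraries, so the direction was not shared. Bckdha was the exception in size, with 752 and 746 bp in control against 1975 and 2001 bp in LSD1-LKO, and the groups do not overlap. In LSD1-LKO a single peak, chr7:25658007-25660293, ran across its start, over the LSD1 peak, while the control peak covered chr7:25659230-25660095. This promoter is shared with Exosc5. Hibch had 1488 and 2003 bp in control against 740 and 2008 bp in LSD1-LKO, so the second-listed libraries differed by 5 bp only. Ivd of leucine breakdown had a first-listed difference of −502 bp and a second-listed one of 145 bp. Bckdhb, Pcca, Pccb, Aldh6a1 and Hibadh differed by −102 to 88 bp in the first-listed and by −303 to 76 bp in the second-listed libraries, and Pcca turned from 88 to −160 bp.

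H3K4me2 peaks were also compared through ranks by MACS −log10 p within each library, a measure of significance and not of height. Ranks were used because every library was called against its own control and fold values are not comparable between lists. The rank of a gene is the percentile of its most significant promoter peak among the listed peaks of that library. The lists differ in length, with 43891 entries and 35149 second-listed peaks in control against 50675 and 38292 in LSD1-LKO. More weak peaks in a list raise the percentile of an unchanged peak, so a rank difference is a position within a list and not a change in H3K4me2. Of the 33 genes with a rank in all 4 libraries, 6 had both control ranks above both LSD1-LKO ranks and 3 had the reverse, while 24 overlapped. The corresponding shares of 12166 genes were 16.4% and 17.8%. The 6 were Tat, Hpd, Kmo, Gldc, Amt and Ivd. Hpd, hydroxyphenylpyruvate dioxygenase, ranked at 86.1 and 74.1 in control against 40.2 and 41.4 in LSD1-LKO. Kmo ranked at 82.2 and 89.4 against 73.6 and 60.7, and Amt at 65.9 and 69.3 against 31.3 and 54.2. At Gldc the gap was narrow, since 97.1 and 87.0 in control faced 64.8 and 86.0 in LSD1-LKO. Tat stood at 68.6 and 77.1 against 64.8 and 43.7, and Ivd at 76.1 and 61.4 against 46.8 and 58.2.

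The 3 genes with higher ranks in LSD1-LKO were Asl, Nags and Bckdha. Bckdha ranked at 62.9 and 76.5 in control against 86.7 and 93.9 in LSD1-LKO. Nags ranked at 61.7 and 55.6 against 80.8 and 79.0, and Asl at 75.7 and 69.3 against 86.7 and 93.2. Rank and covered length need not move together, as Asl ranked higher and was covered over fewer bases in LSD1-LKO, whereas Tat ranked lower and was covered over more. Kmo and Amt had lower ranks and fewer covered bases in LSD1-LKO without overlap, and Bckdha had higher ranks and more covered bases. How often both measures separate the groups over all genes was not counted.

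**Figure D4:**
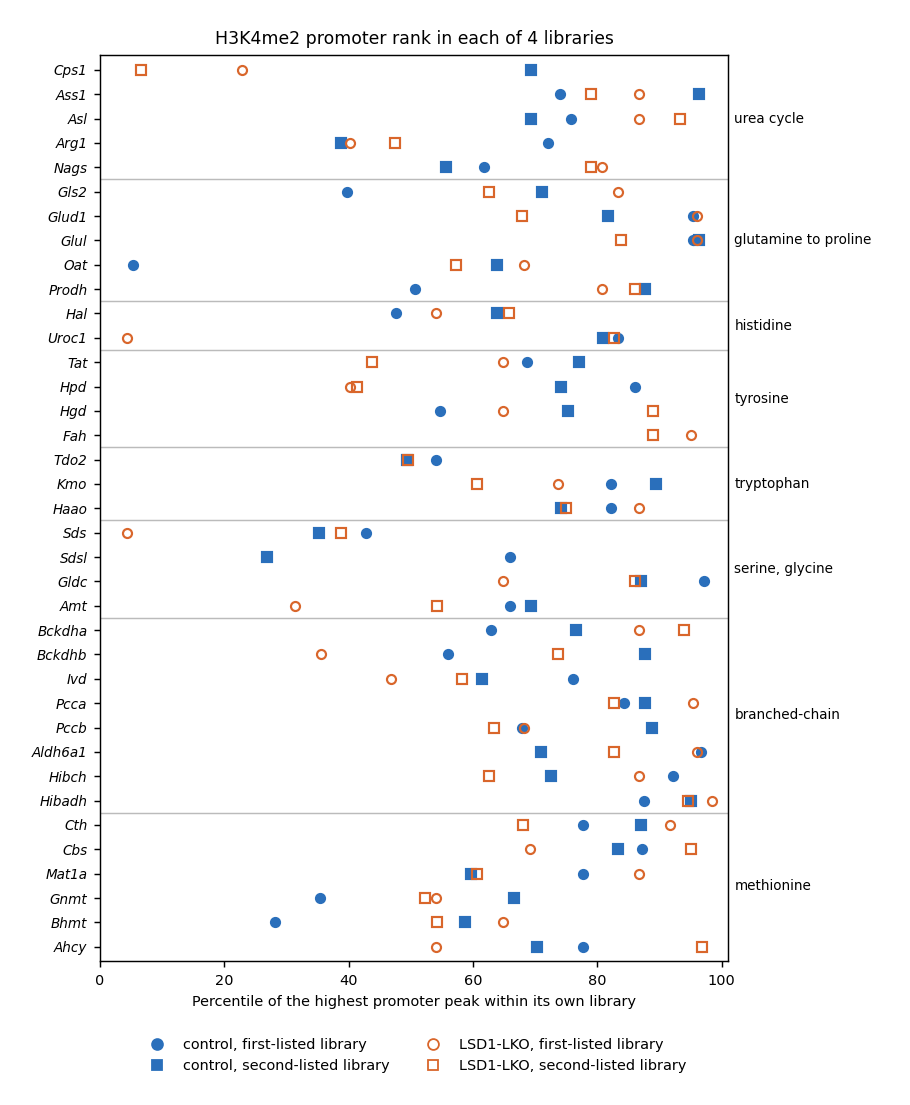
Percentile by MACS −log10 p (horizontal axis, 0 to 100) of each gene's highest-ranking H3K4me2 promoter peak among the listed peaks of the same library. Filled symbols are the 2 control and open symbols the 2 LSD1-LKO libraries, with circles for the first-listed and squares for the second-listed library. Most genes overlap between genotypes, with spreads between libraries of 1 genotype as wide as at Oat, where control stood at 5.34 and 63.9.

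The highest-ranking control H3K4me2 promoters of each pathway, by the mean of both libraries, were those of Ass1, Glul, Uroc1, Hpd, Kmo, Gldc, Hibadh and Cbs. Ass1 stood at 74.0 and 96.3, Glul at 95.3 and 96.3, Uroc1 at 83.3 and 80.9, Hibadh at 87.5 and 95.1 and Cbs at 87.1 and 83.3. Over members the median rank was 74.0 and 73.3 in the control and 69.1 and 67.9 in the LSD1-LKO libraries. Over genes marked by H3K4me2 it was 83.8 and 80.9 in control against 84.0 and 82.7 in LSD1-LKO. Median ranks of the set were thus below those of marked genes in all 4 libraries. Its covered locus length, given above, was above that of marked genes, whose medians were 2813 bp for control against 2650 bp for LSD1-LKO.

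A list of 53 other genes of the same pathways was examined in the same way. LSD1 had a promoter peak at 19 of them and a peak in 38 loci, beside 37.6% and 60.5% of marked genes. H3K4me2 was listed at 48 promoters in control and at 48 in LSD1-LKO. Covered promoter length was lower in LSD1-LKO at 37 and higher at 14, with a median difference of −287 bp, beside 60.1% lower and −111 bp over marked genes. Those with an LSD1 promoter peak included Slc25a15 and Car5a beside the urea cycle, Got2 and Gpt of glutamate metabolism, Amdhd1 of histidine, Gstz1 and Qdpr of tyrosine, Qprt and Aadat of tryptophan, Shmt1 of serine, Dbt, Mccc2, Auh and Acadsb of branched-chain breakdown, Sardh, Cdo1 and Csad of the methionine group and Aldh7a1 of lysine.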

How the data were processed

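ChIP-seq of LSD1 in wild-type liver and of H3K4me2 in control and LSD1-LKO liver was deposited as 3 peak lists. The authors aligned reads to mm10 with Bowtie 2 and called narrow peaks per ChIP library with MACS against a control library, and did not pool libraries. They joined the peaks of both libraries with BEDtools 2.25.0 (per the submitters' processing notes). The methods give a MACS p of 0.01, but the highest listed p was 0.05 for LSD1, 0.048 for control and 0.0486 for LSD1-LKO. With p at or below 0.01 in both libraries, 48 of the 58 LSD1 peaks in the loci remained. The labels call the control libraries input, whereas the methods name IgG. The files hold, per library, the deposited ratio of ChIP over control signal (fold enrichment) and the deposited −log10 p-value and −log10 q-value from MACS, which are neither read counts nor signal. Each entry pairs a peak of the first-listed library with one of the second, and a peak pair overlapped by at least 50.0% of the first peak. Peak names of the first-listed H3K4me2 libraries carry the word picard and those of the second-listed do not, and the effect of this on the values was not tested. A total of 12 columns of per-library values (integer scores and summit offsets) were not used. Depth is unknown, and no read-based interval could be given.

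TSS of protein-coding transcripts came from GENCODE release 21 (54361 sites in 21853 genes, mitochondrial genome left out). All 37 members were found in the annotation, and of 123 symbols looked up, 121 matched directly and 2 by synonym. A gene counted as marked if a peak overlapped its promoter by 1 bp or more. Intervals are those of the first-listed library unless stated. All 37 members are accounted for, and positions or values are given for those with an LSD1 promoter peak or a promoter peak in 1 list, the highest control rank per pathway, the largest changes and the most LSD1 peaks. The members and lists were chosen with earlier results of these data known, and no test was run. The values of 1 of the other pathway genes are not reported here. Sequences were read with samtools 1.23.1 and promoter windows came from RefSeq. Python 3.11.15, pandas 2.3.3 and scipy 1.17.1 were used, and interval code was tested on simulated data. The alternatives numbered 107, of which 26 were added after seeing the data.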

Additional observations from a re-analysis of the deposited data

How the results depend on the processing

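Of 107 alternatives over 13 results, 81 stayed and 26 moved. A count stayed if it was within 1.5-fold of the reported count, and the share if it was within its Wilson interval of 45.8 to 70.4. The median change stayed if it was within 188 bp, the SD between its first-listed and second-listed values. A reversal could be scored only for the median change, where none was seen, so its absence says nothing about the other results. Keeping peaks with MACS p at or below 1e-05 in both libraries moved most. Members with an LSD1 promoter peak fell to 2, members with an LSD1 peak in the locus to 5, LSD1 peaks in the loci to 5, the share over control H3K4me2 to 0%, LSD1-LKO promoter marking to 20, control-only and LSD1-LKO-only genes became 8 and 4, the median change 0 bp and genes with higher control ranks 2. With q at or below 0.05 the LSD1 promoter count was 3, the locus count 5, the LSD1 peaks 7, the share 28.6%, and the genes in 1 list alone 10 and 4. The added threshold of p at or below 0.01 gave 4 control-only genes, and start sites of every transcript type, also added, gave 1 LSD1-LKO-only gene.

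A promoter of 500 bp on either side gave 4 control-only genes and a median change of −58 bp, and 1 TSS per gene gave −59 bp. A promoter of 2 kb gave 0 control-only and 1 LSD1-LKO-only gene. Requiring overlap of 50% of the narrower interval gave a share of 44.8%. Intervals of the second-listed libraries alone gave 1 control-only gene, 1 LSD1-LKO-only gene and a median change of −65 bp. Every entry still needed a paired peak in the first-listed library, so no library was left out. The median change was never positive in the alternatives run, and it was 0 bp at the strict p. No paired analysis was possible because the lists carry no replicate numbers and no result comes from a test. The cause of these shifts was not tested. Read depth limits which weak peaks were listed, and it could not be examined here.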

Other observations

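Among other genes of these pathways, 3 were marked at the promoter in control alone and 3 in LSD1-LKO alone, near the background of 4.99% and 5.14% of marked genes. Otc, the urea cycle ornithine transcarbamylase, had 631 bp covered in control against 0 bp in LSD1-LKO. Shmt2, mitochondrial serine hydroxymethyltransferase, had 1332 bp and 0 bp, and Hsd17b10 of isoleucine breakdown 849 bp and 0 bp. In the other direction Aldh4a1 of proline breakdown had 0 bp in control against 1552 bp in LSD1-LKO, Pcbd1, which recycles the cofactor of phenylalanine hydroxylase, 0 and 1151 bp, and Gcdh of lysine breakdown 0 and 1263 bp. Tdh and Dao had no promoter peak in either list. These values are from the first-listed libraries.

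Among the stronger LSD1 promoter signals of these other genes, by fold enrichment, Sardh, sarcosine dehydrogenase, had 7.64 and 5.34 in the first-listed and second-listed libraries. Car5a, the mitochondrial carbonic anhydrase that supplies bicarbonate for urea synthesis, had 5.75 and 5.93. These genes were chosen after their values were seen.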
